A study of Mus musculus with 12 samples.

Results

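In G1E-ER4 cells, 74 of the 17210 genes in the count table stood below 0.25 times their control level in every treated group. They were chosen by their measured level, expressed as CPM (a gene's count divided by the total of its library, times 1e+06). For each gene the mean CPM of the 3 libraries was taken in each group, the control mean had to reach at least 5 CPM, and the 3 ratios of a treated mean to the control mean all had to lie under 0.25. The numeric limits were met by 80 genes. Of 7 genes named in advance as left out, 6 met them (Slc4a1, Lyl1, Il4ra, Gata2, Ikzf4 and Ptprcap), while the highest treated mean of Kit was 76.9% of its control.

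G1E-ER4 is a mouse erythroid progenitor line, labelled C57BL/6J, that lacks its own GATA1 and carries a fusion of GATA1 with the ligand-binding domain of the estrogen receptor. All 4 groups therefore share the fusion and the missing Gata1 gene, and β-estradiol (EST) turns the fusion on. Cells were transduced for 24 h with a retrovirus that was empty or that carried the active fragment of SREBP2 (amino acids 1 to 468), and they then received vehicle or EST for 6 h. The groups are Vector (empty virus, no EST), SREBP2 (virus with SREBP2, no EST), Vector+EST and SREBP2+EST, each with 3 libraries. The protocol given with the samples states 500 nM EST, whereas the design text states 200 nM. Vector is the control, and its 3 libraries serve in all 3 ratios. Libraries carry the name of their group and the number that heads their column, and values are listed in the order Vector 1, 4 and 5, SREBP2 1, 3 and 5, Vector+EST 1, 3 and 5, and SREBP2+EST 1, 2 and 5. Nothing in the labels says that the libraries came from separate cultures, so p-values measure only the spread between these libraries, which may be technical.

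GATA1 is the transcription factor that drives red cell maturation. In progenitors that regain it, it activates globin, heme and membrane genes and switches off genes of the immature state, of which Gata2 and Kit are the best known. SREBP2 is the membrane-bound transcription factor that, once its active fragment is released, turns on genes of cholesterol synthesis and uptake. The 74 genes hold several with a known place in early blood cells: Tal1, a basic helix-loop-helix factor needed to form the blood lineages, Zfp36l2, which binds mRNA and keeps early erythroid progenitors dividing, Itga2b, the CD41 integrin chain of megakaryocytes and early progenitors, Podxl, a sialomucin of the CD34 family, and Ptpn6, the phosphatase SHP-1, which dampens erythropoietin and Kit signalling.

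Library totals ran from 18700959 to 19152281 estimated counts, so that 3 counts came to between 0.157 and 0.160 CPM. The labels name the cells embryonic stem cells, from which the G1E line was once derived, but the pluripotency markers listed summed to at most 0.633 CPM in any library, while all 13 erythroid markers passed 1 CPM. Srebf2, the mouse gene of SREBP2, stood at 362 to 378 CPM in Vector, 438 to 460 CPM in Vector+EST and 775 to 819 CPM in the 6 libraries with SREBP2. The paper measured the overexpressed transcript in G1E-ER4 cells as human SREBP2, whereas these reads were counted to mouse genes. The count therefore does not measure the level of the viral transcript. Reads counted to Gata1 stood at 1799 to 1823 CPM in Vector and 426 to 573 CPM in the 9 treated libraries, SREBP2 without EST included, so their level was not shared by the groups, and the gene count does not say which of them come from the fusion. Fibroblast markers summed to 20.1 to 21.3 CPM in Vector, nearly all of it Col1a2, to 4.44 to 5.94 CPM in SREBP2, 5.14 to 37.3 CPM in Vector+EST (Vector+EST 5 the highest) and 18.6 to 35.4 CPM in SREBP2+EST. Macrophage markers summed to between 2.01 and 5.18 CPM and T and B lymphocyte markers to between 1.2 and 2.09 CPM, and the part of such transcripts in the results below was not tested.

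A pair of libraries stood apart from their groups. A chi-square statistic per gene, which counting error alone would bring to about 1, came to 7.95 and 10.3 between the library labelled SREBP2 1 and the others of its group, and to 6.06 and 6.16 between the library labelled SREBP2+EST 1 and the others of its own. Across the groups, the library labelled SREBP2 1 differed from SREBP2+EST 2 by 3.69, and the library labelled SREBP2+EST 1 differed from SREBP2 3 by 1.93. By this measure each was nearer to a library of the other group than to any of its own. Col1a1, the fibroblast collagen gene, went the other way, with 6.35 CPM in SREBP2+EST 1, 13.6 and 6.71 CPM in SREBP2+EST 2 and 5, and at most 0.0530 CPM in the SREBP2 libraries. The main results that rest on this pair of libraries are given with and without them. With both left out the rule kept 66 genes, 65 of them among the 74, and the same 66 and 65 with only SREBP2 1 left out. The members lost were Zfp36l2, Slc41a3, Fgf15, Tubb3, Slc19a1, Itga2b, Irf5, Ptpn6 and Tfap4. Their means over SREBP2 3 and 5 lay above the ratio limit of the rule. They thus met the rule only with SREBP2 1 included. All 74 genes passed the low-count filter over the 12 libraries, with 11177 genes tested. With only the 6 libraries of a comparison between treated groups, 69 or 70 of the 74 passed. Some genes with few treated counts thus enter those comparisons through other libraries, and counts out of 74 include them.

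Summed over the 74 genes, the level was 4649, 4573 and 4633 CPM in the Vector libraries, 722, 926 and 917 CPM in SREBP2, 784, 756 and 811 in Vector+EST, and 871, 721 and 745 in SREBP2+EST. The Vector libraries were high and close together, and the 9 treated libraries formed a single low range. The group means were 4619 ± 40.2 CPM (SD, n = 3), 855 ± 116 CPM, 784 ± 27.2 CPM and 779 ± 81.1 CPM, which left 18.5%, 17.0% and 16.9% of the Vector level. The rule sets the size of these sums, since each gene in them had to lie under 0.25 of Vector. Without the pair of libraries that stood apart, the sums were 921 CPM (20%) in SREBP2 and 733 CPM (15.9%) in SREBP2+EST.

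**Figure D1:**
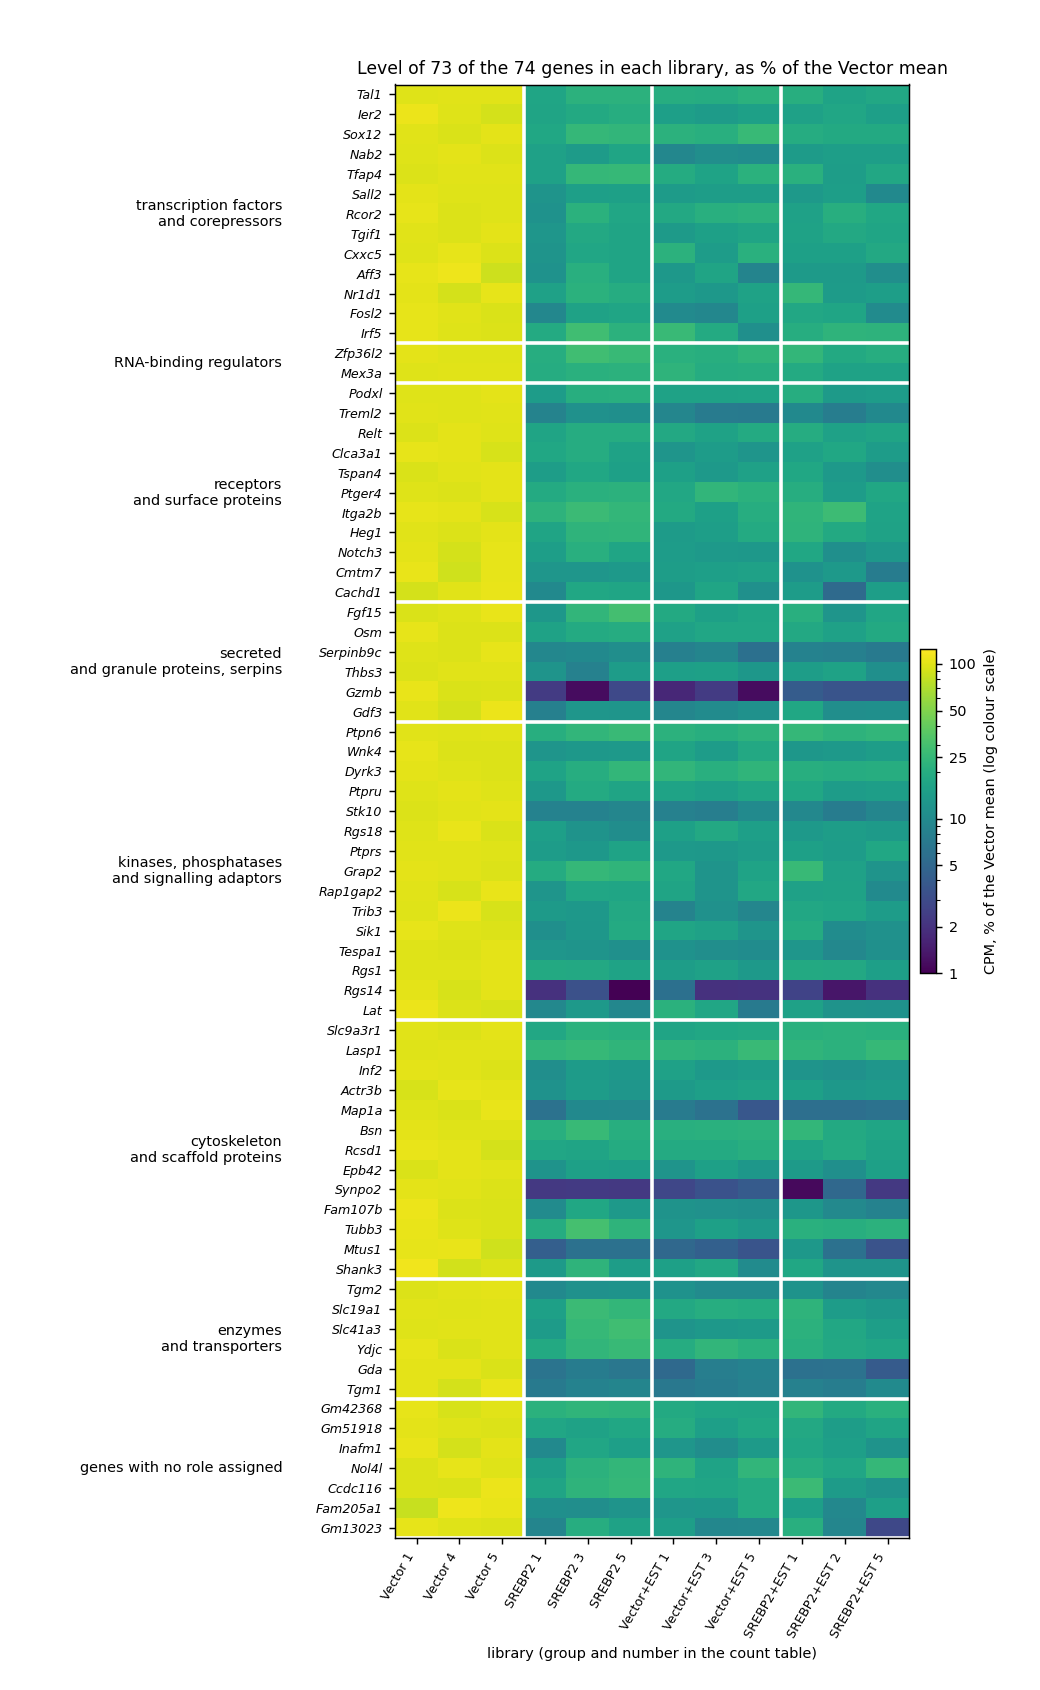
Level of 73 of the 74 genes (vertical axis, grouped by role) in each of the 12 libraries (horizontal axis, grouped by treatment), as a percentage of the gene's Vector mean on a log colour scale. The 3 Vector libraries are uniformly high, the 9 treated libraries are low for every gene shown, and Gzmb, Rgs14 and Synpo2 form the darkest lines.

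Gene by gene, the median level left was 16.2% of Vector in SREBP2 (2.00% to 24.8%), 15.1% in Vector+EST (1.75% to 24.0%) and 15.8% in SREBP2+EST (2.00% to 24.0%). Without the pair of libraries the medians were 17.5% in SREBP2 and 14.2% in SREBP2+EST, and for the 8 role groups described below they ran from 12.6% to 24.5% and from 10.9% to 17.9%. The lowest Vector library lay above the highest treated library for all 74 genes, as it did for 33% of all genes tested. This describes the rule and is no test of it: over all genes tested with edgeR's quasi-likelihood test at a Benjamini-Hochberg adjusted p under 0.05, 33.8% were lower than Vector in SREBP2, 35.5% in Vector+EST and 34.2% in SREBP2+EST, and 71.5%, 70.6% and 72.7% differed in either direction. The treated means of a gene lay close to each other, with a median ratio of the highest to the lowest of 1.24, a ratio under 1.2 for 26 genes, and at most 2.11 (Gzmb). The lowest of the treated means was in SREBP2 for 12 genes, in Vector+EST for 31 and in SREBP2+EST for 31. The rule favours close treated means, as each had to lie under the same limit. These ratios and counts were not computed over all genes, so they only describe the list. In these bulk libraries, fewer cells that express a gene and less RNA per cell cannot be told apart.

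**Figure D2:**
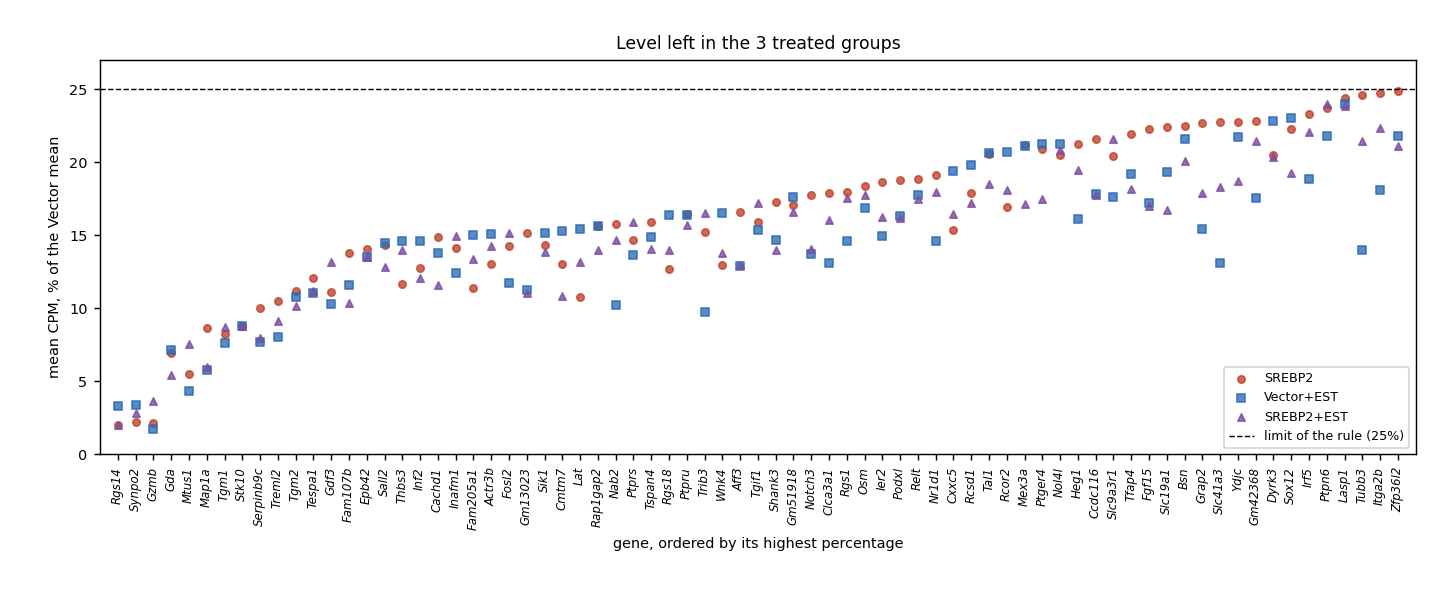
Mean CPM left in SREBP2 (circles), Vector+EST (squares) and SREBP2+EST (triangles), as a percentage of the Vector mean, for 73 of the 74 genes ordered by its highest percentage; the dashed line is the limit of the rule. The levels run from 1.75% (Gzmb, Vector+EST) to 24.8% (Zfp36l2, SREBP2), and for most genes the 3 symbols lie close together.

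At the edges of the rule, Zfp36l2, Itga2b and Tubb3 lay just inside the ratio limit, with a highest treated level of 24.8%, 24.7% and 24.6% of Vector. Without SREBP2 1, each of these genes lay above that limit. Vav2, Myo1g and Cpne5 lay just outside it at 25%, 25.2% and 25.3%. For the level limit, Gm13023, Shank3 and Irf5 lay inside at 5.21, 5.72 and 5.78 CPM in Vector, and Zfp704, Itih5 and Socs3 outside at 4.86, 4.52 and 4.18 CPM. Below 10% in all treated groups were 8 genes, and 24 genes kept 20% or more in at least one. The neighbours on both sides of each limit differ little from each other, so the list is a stretch of a continuous range.

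Transcription factors and corepressors made up 13 of the 74 genes, with a median of 16.9% of Vector left in SREBP2, 15.4% in Vector+EST and 17.2% in SREBP2+EST. Tal1 lies at chr4:115056426-115071755 (GRCm38.p6, as all coordinates here). It stood at 486, 490 and 495 CPM in Vector and 83.1, 109 and 110 (SREBP2), 99.2, 96.9 and 107 (Vector+EST) and 102, 80.9 and 89.4 CPM (SREBP2+EST). The treated groups overlapped each other, and their means lay 4.85-fold to 5.41-fold below Vector. Nab2, a corepressor of the EGR zinc finger factors, stood at 54.9, 56.9 and 53.7 CPM in Vector and 8.78, 7.80 and 9.47 (SREBP2), 5.13, 6.02 and 5.79 (Vector+EST) and 7.79, 8.22 and 8.26 CPM (SREBP2+EST). All 3 Vector+EST libraries of Nab2 lay below all 6 libraries with SREBP2.

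The other 11 factors ranged from 5.78 CPM (Irf5) to 77.5 CPM (Ier2) in Vector. Ier2 is an immediate early response gene, and Fosl2 encodes a Fos-family part of AP-1; 18.6% and 14.2% of their Vector level was left in SREBP2, and 15.0% and 11.7% in Vector+EST. Sox12, an HMG-box factor of the SoxC family, kept 22.2%, 23.0% and 19.2% in SREBP2, Vector+EST and SREBP2+EST. Several of the others are repressors or parts of repressor complexes: Rcor2, a CoREST-family partner of the histone demethylase LSD1, Tgif1, a homeobox repressor of TGF-β signalling, Tfap4, a helix-loop-helix factor that can repress, and Nr1d1, the heme-binding nuclear receptor REV-ERBα. These 4 kept between 14.6% (Nr1d1, Vector+EST) and 21.9% (Tfap4, SREBP2). Sall2, a zinc finger factor, Cxxc5, which binds unmethylated CpG, Aff3, of the AF4 elongation factor family, and Irf5, an interferon regulatory factor, completed the group, with 12.8% (Sall2, SREBP2+EST) to 23.3% (Irf5, SREBP2) left.

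The RNA-binding regulators were Zfp36l2 and Mex3a. Zfp36l2 (chr17:84183924-84187947) encodes a zinc finger protein that binds AU-rich mRNAs and speeds their decay. It stood at 442, 423 and 426 CPM in Vector and 87.3, 123 and 111 (SREBP2), 92.4, 88.8 and 101 (Vector+EST) and 105, 81.1 and 86.9 CPM (SREBP2+EST). Its 9 treated libraries overlapped, and in both SREBP2 groups library 1 was the one apart. Mex3a, a KH-domain RNA-binding protein of stem and progenitor cells, stood at 30 ± 0.430 CPM (SD, n = 3, as for all means here) in Vector and 6.36 ± 0.406 (SREBP2), 6.34 ± 0.518 (Vector+EST) and 5.15 ± 0.488 CPM (SREBP2+EST).

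Receptors and surface proteins numbered 11. Podxl (chr6:31519493-31563937) had the most reads of all 74 genes, at 719, 713 and 740 CPM in Vector and 105, 150 and 152 (SREBP2), 118, 118 and 118 (Vector+EST) and 147, 101 and 104 CPM (SREBP2+EST). CPM is not divided by transcript length, so this ranks reads and not molecules. The Vector+EST libraries of Podxl lay between the others. SREBP2 1 was low like SREBP2+EST 2 and 5, and SREBP2+EST 1 was high like SREBP2 3 and 5. Treml2, a receptor of the TREM family, stood at 129, 127 and 129 CPM in Vector and 11.2, 14.9 and 14.3 (SREBP2), 11.8, 9.64 and 9.41 (Vector+EST) and 12.6, 9.89 and 12.8 CPM (SREBP2+EST). Relt, of the TNF receptor superfamily, stood at 97.7, 103 and 99.4 CPM in Vector and 16.8, 19.7 and 19.9 (SREBP2), 18.3, 16.1 and 18.9 (Vector+EST) and 19.9, 15.7 and 16.7 CPM (SREBP2+EST). Treml2 was 9.55-fold lower than Vector in SREBP2 and Relt 5.31-fold, and for both genes SREBP2+EST overlapped the other treated groups.

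Itga2b stood at 30.1, 29.4 and 26.8 CPM in Vector and 6.55, 7.69 and 7.07 (SREBP2), 5.39, 4.45 and 5.78 (Vector+EST) and 6.72, 7.86 and 4.70 CPM (SREBP2+EST). Its SREBP2 libraries lay above its Vector+EST libraries, and SREBP2+EST spanned both. Clca3a1, an accessory protein of calcium-activated chloride channels, stood at 43.9, 43.1 and 39.8 CPM in Vector and 7.54, 8.37 and 6.79 (SREBP2), 5.27, 6.07 and 5.28 (Vector+EST) and 6.72, 7.45 and 6.13 CPM (SREBP2+EST). Its 3 Vector+EST libraries lay below all 6 libraries with SREBP2. None of the 12 estimated counts of Clca3a1 was a whole number (0 of 12), as happens where reads are divided between a gene and a copy or an overlapping gene, so its level is uncertain. There were 14 genes with no whole count, whose source was not tested and which also include Slc41a3, Bsn, Tspan4, Gda, Epb42, Gdf3 and Nr1d1. The remaining 6 genes ranged from 8.05 CPM (Cachd1) to 35.4 CPM (Tspan4) in Vector. They were Ptger4, the prostaglandin E2 receptor EP4, Notch3, a Notch receptor, Heg1, a mucin-like membrane protein, Tspan4, a tetraspanin, Cmtm7, a MARVEL-domain protein, and Cachd1, related to calcium channel subunits, with 10.9% (Cmtm7, SREBP2+EST) to 21.3% (Heg1, SREBP2) left.

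Secreted and granule proteins and serpins numbered 7, and none was among the 12 genes with the most reads. Gzmb, which encodes the serine protease granzyme B of cytotoxic granules, had the lowest level left in Vector+EST, at 1.75%. It stood at 9.74, 8.64 and 8.88 CPM in Vector and 0.211, 0.106 and 0.264 (SREBP2), 0.157, 0.212 and 0.107 (Vector+EST) and 0.371, 0.319 and 0.317 CPM (SREBP2+EST). At such levels a library held a handful of counts, the lowest of them 2, so the order of the treated groups cannot be read. Osm, the cytokine oncostatin M and a known STAT5 target, stood at 31.0 ± 1.44 CPM in Vector and 5.69 ± 0.603 (SREBP2), 5.23 ± 0.267 (Vector+EST) and 5.49 ± 0.528 CPM (SREBP2+EST). Fgf15, the endocrine fibroblast growth factor of bile acid control, and Gdf3, a TGF-β family ligand, kept 22.2% and 11.1% in SREBP2, 17.2% and 10.3% in Vector+EST and 17.0% and 13.2% in SREBP2+EST. Serpinb9c, a serpin of the granzyme inhibitor clade, kept 7.71% to 10%. Serpinb9c has close copies in the genome. Thbs3, a matricellular thrombospondin, kept 11.7% to 14.6%.

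Kinases, phosphatases and signalling adaptors formed the largest group, with 15 genes and medians of 14.7%, 15.4% and 14.0% left in SREBP2, Vector+EST and SREBP2+EST. Ptpn6 (chr6:124720707-124738709) stood at 112, 112 and 113 CPM in Vector and 23.3, 26.8 and 29.9 (SREBP2), 24.9, 23.0 and 25.7 (Vector+EST) and 28.1, 25.5 and 27.1 CPM (SREBP2+EST). Wnk4, a kinase known for the control of salt transport, stood at 92.3, 85.3 and 85.0 CPM in Vector and 10.9, 11.5 and 11.7 (SREBP2), 14.6, 12.7 and 16.1 (Vector+EST) and 11.2, 12 and 12.9 CPM (SREBP2+EST). Ptpn6 overlapped between all treated groups, whereas the SREBP2 libraries of Wnk4 lay below its Vector+EST libraries. The other kinases and phosphatases were Dyrk3, a kinase enriched in erythroid cells, Stk10, which phosphorylates ezrin-type linkers in lymphocytes, Sik1, a salt-inducible kinase, and the receptor phosphatases Ptpru and Ptprs. Stk10 had the most even loss of the list, with 8.76%, 8.77% and 8.80% of 71.4 ± 1.60 CPM left. None of its 12 counts was whole.

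Trib3, a pseudokinase of the Tribbles family known from stress responses, stood at 18, 19.5 and 16.8 CPM in Vector and 2.53, 2.39 and 3.32 (SREBP2), 1.57, 2.07 and 1.66 (Vector+EST) and 3.28, 3.08 and 2.59 CPM (SREBP2+EST). Its Vector+EST libraries lay below all others. The RGS proteins Rgs1, Rgs14 and Rgs18 speed the shut-off of G proteins, and Rap1gap2 does so for the small GTPase Rap1. Rgs18, known from megakaryocytes and platelets, stood at 53.7, 57.7 and 52.4 CPM in Vector and 8.29, 6.58 and 5.86 (SREBP2), 8.48, 10.1 and 8.29 (Vector+EST) and 7.25, 8.07 and 7.60 CPM (SREBP2+EST). Rgs14 stood at 8.17, 7.48 and 8.20 CPM in Vector and 0.158, 0.265 and 0.0528 (SREBP2), 0.471, 0.159 and 0.160 (Vector+EST) and 0.212, 0.106 and 0.158 CPM (SREBP2+EST). Rgs14 was left with few counts, the lowest library holding 1, while Rgs18 kept 12.7% to 16.4% and Rgs1 14.6% to 18%. Rgs1 and Rgs18 are neighbours on chromosome 1, 503.6 kb apart.

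Grap2, Lat and Tespa1 encode parts of the signalling complex best known downstream of the T cell receptor, in a cell line whose lymphocyte markers summed to at most 2.09 CPM. Grap2, the adaptor GADS, stood at 27.4, 27.1 and 26.2 CPM in Vector and 5.23, 6.69 and 6.39 (SREBP2), 4.80, 3.24 and 4.39 (Vector+EST) and 6.90, 4.26 and 3.27 CPM (SREBP2+EST). Its SREBP2 libraries lay above its Vector+EST libraries, and SREBP2+EST spanned both. Lat kept 10.8%, 15.5% and 13.1% of 6.71 CPM, and Tespa1 12.1%, 11% and 11.2% of 11.7 CPM.

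Cytoskeleton and scaffold proteins numbered 13. Slc9a3r1 (chr11:115163341-115181178) encodes the PDZ scaffold NHERF1, which ties membrane proteins, podocalyxin among them, to ezrin and actin. It stood at 198, 188 and 200 CPM in Vector and 35.5, 42.9 and 41.2 (SREBP2), 32.5, 34.9 and 35.8 (Vector+EST) and 41.7, 43.3 and 41.5 CPM (SREBP2+EST). Lasp1, a LIM and SH3 protein of actin structures, stood at 98.5, 102 and 101 CPM in Vector and 24.3, 25.3 and 23.7 (SREBP2), 23.3, 22.3 and 26.5 (Vector+EST) and 23.6, 22.6 and 25.7 CPM (SREBP2+EST). Inf2, a formin that builds and severs actin filaments, stood at 88.5, 86.5 and 83.3 CPM in Vector and 9.43, 12.3 and 11.2 (SREBP2), 13.6, 11.8 and 12.4 (Vector+EST) and 10.4, 9.97 and 10.8 CPM (SREBP2+EST). The SREBP2+EST libraries of Slc9a3r1 lay above all Vector+EST libraries, those of Inf2 lay below them, and the treated groups of Lasp1 overlapped.

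Map1a and Tubb3 belong to microtubules. Map1a stood at 45.8, 43.4 and 48.6 CPM in Vector and 2.85, 4.56 and 4.49 (SREBP2), 3.46, 2.81 and 1.71 (Vector+EST) and 2.70, 2.65 and 2.85 CPM (SREBP2+EST). Tubb3, a β-tubulin isotype best known from neurons, stood at 8.69, 8.06 and 7.73 CPM in Vector and 1.64, 2.48 and 1.90 (SREBP2), 1.04, 1.27 and 1.11 (Vector+EST) and 1.74, 1.70 and 1.80 CPM (SREBP2+EST). The Vector+EST libraries of Tubb3 lay below all 6 libraries with SREBP2. The summed neural markers, of which Tubb3 is one and made up most in Vector, were 11.4 to 13.1 CPM in Vector and 2.08 to 5.87 CPM in the treated libraries. Synpo2, an actin-bundling protein of muscle, stood at 9.64, 9.42 and 9.14 CPM in Vector and 0.211, 0.212 and 0.211 (SREBP2), 0.262, 0.318 and 0.374 (Vector+EST) and 0.106, 0.478 and 0.211 CPM (SREBP2+EST), where its lowest library held 2 counts. Mtus1, a microtubule-associated protein, kept 5.5%, 4.34% and 7.54%. Epb42, protein 4.2 of the red cell membrane, binds band 3, the product of the left-out gene Slc4a1, and went from 31.9 ± 1.19 CPM to 4.49 ± 0.616, 4.32 ± 0.565 and 4.31 ± 0.696 CPM. The other 5 genes kept 10.4% (Fam107b, SREBP2+EST) to 22.5% (Bsn, SREBP2): Actr3b, an actin-related protein of the Arp2/3 type, Rcsd1, which binds actin capping protein, Bsn and Shank3, known as synaptic scaffolds, and Fam107b.

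Enzymes and transporters numbered 6. Tgm2 (chr2:158116405-158146392) encodes tissue transglutaminase, which cross-links proteins. It stood at 142, 146 and 150 CPM in Vector and 14.5, 16.7 and 17.5 (SREBP2), 17.2, 15.0 and 14.9 (Vector+EST) and 17.5, 13 and 13.9 CPM (SREBP2+EST). Its relative Tgm1 kept 8.26%, 7.65% and 8.71% of 27.9 ± 2.08 CPM. Slc41a3, of a magnesium transporter family, stood at 51.2, 52.9 and 52.4 CPM in Vector and 7.45, 13.2 and 14.9 (SREBP2), 6.38, 6.83 and 7.30 (Vector+EST) and 11.5, 9.35 and 7.78 CPM (SREBP2+EST). Slc19a1, the reduced folate carrier, was 59.2 ± 1.06 CPM in Vector and 13.2 ± 3.54 (SREBP2), 11.4 ± 0.498 (Vector+EST) and 9.90 ± 3.20 CPM (SREBP2+EST). Both transporters spread more in the SREBP2 groups than in Vector+EST. Gda, guanine deaminase of purine breakdown, kept 6.95%, 7.17% and 5.44%, and Ydjc, of a sugar deacetylase family, 22.8%, 21.7% and 18.7%.

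For 7 genes no role was assigned. Gm42368 stood at 178, 159 and 170 CPM in Vector and 36.9, 40.1 and 38.6 (SREBP2), 31.7, 29.0 and 28.5 (Vector+EST) and 40.7, 32.0 and 36.3 CPM (SREBP2+EST). The Vector+EST libraries of Gm42368 lay below all 6 libraries with SREBP2, as did those of Nab2, Clca3a1, Tubb3, Trib3 and Slc41a3. Such separation was not counted over all genes, so it is only a description. Nol4l, Inafm1, Gm51918, Ccdc116, Fam205a1 and Gm13023 ranged from 5.21 to 57.7 CPM in Vector and kept 11.1% to 21.6%. Gm42368, Gm51918, Ccdc116, Inafm1 and Fam205a1 had no whole count in any library (0 of 12), as is usual where reads are shared with other genes or copies.

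**Figure D3:**
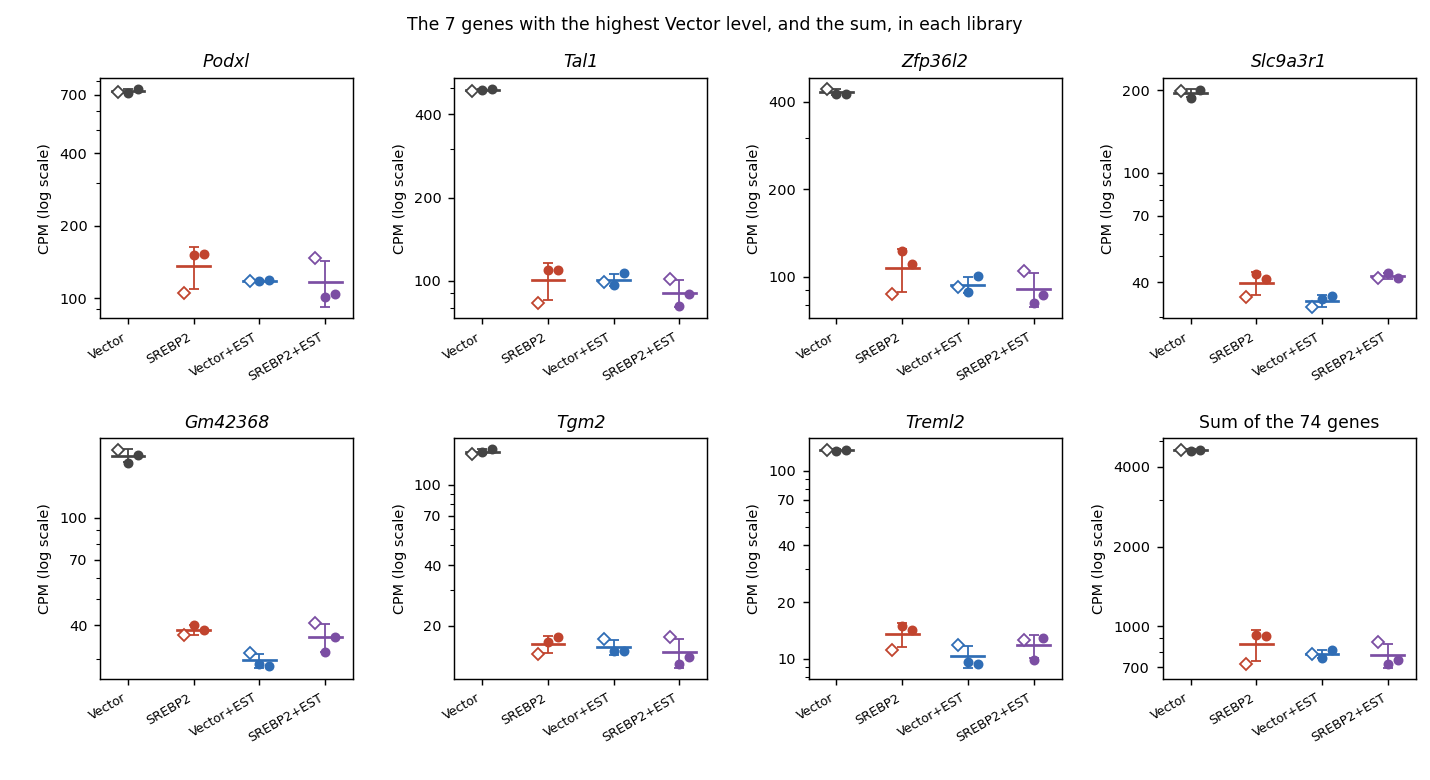
CPM (log axis) of the 7 genes with the most reads in Vector and of the sum of all 74 genes, in each library of the 4 groups; bars are the mean and SD of 3 libraries, and open diamonds mark library 1 of each group. Every treated library lies far below Vector, and for Podxl, Tal1, Zfp36l2 and the sum the open diamond is the lowest of SREBP2 and the highest of SREBP2+EST.

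RefSeq's GRCm38.p6 gene table held 72 of the 74 genes, all 72 annotated as protein coding, on 19 chromosomes. No other annotated gene overlapped 43 of them, and 29 overlapped at least one. The reads do not mark strand, so reads from the shared stretch of such genes cannot be told apart, though several of the 29, Tal1 among them, had 12 whole counts of 12. Nab2 overlaps Stat6, which was 123 CPM in Vector, 69.2 CPM in SREBP2, 61.2 CPM with EST alone and 67.7 CPM with both. It was lowest in Vector+EST, as Nab2 was, and 1 of the 12 counts of Nab2 was whole, so the level of Nab2 and its differences between treated groups are less certain. Some of the other partners differed in pattern: Tspan4 overlaps Chid1, which was 23.3 CPM in Vector and 20.4 to 22.7 CPM in the treated groups, and Map1a overlaps Ppip5k1, which was 19.4 CPM in Vector and 33.2 to 37.6 CPM in the others, but also Trp53bp1, which was 56.2 CPM in Vector and 38.3 to 47.6 CPM in the others. Inafm1 overlaps Ccdc9, which was 78.5 CPM in Vector and 31.5 to 34.6 CPM in the treated groups. Ydjc and Ccdc116 overlap each other, and Nr1d1 overlaps Thra (63.0 CPM in Vector, 18.9 to 20.8 CPM treated), so these are less certain as separate genes. Trib3 and Sox12 lie 49.5 kb apart on chromosome 2, the smallest gap between members that do not overlap.

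Promoter windows from RefSeq (GRCm38.p6, 250 bases before to 50 after each start site) were at hand for 52 of the 74 genes. GATA factors bind a short motif, of which the spelling AGATAA was searched on both strands, together with its variants that begin with T, end with G or do both. Such a match stood in 9 of 52 genes (17.3%), as against 23% of 9059 tested genes and 33% of all 27025 genes with a window. Of the genes whose match lies before the start with 20 bases of the window on each side, the 4 with the most reads in Vector are printed below. Inf2 has more reads than the last 3 of these, but its match does not lie so. They are shown because GATA1 activity is what EST switches on. Capitals mark the match, the strand is that of the gene, and in Tal1 and Epb42 the match reads on the opposite strand. Serpinb9c has 2 windows, and its match belongs to a start that lies inside the annotated gene (chr13:33149275-33159754).

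Tal1, chr4:115056201-115056246, + strand, match 205 bases before the start: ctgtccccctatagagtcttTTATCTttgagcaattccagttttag

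Clca3a1, chr3:144760979-144761024, − strand, match 27 bases before the start: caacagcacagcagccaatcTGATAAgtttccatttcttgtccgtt

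Epb42, chr2:121037078-121037123, − strand, match 226 bases before the start: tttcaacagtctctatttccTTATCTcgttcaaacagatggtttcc

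Serpinb9c, chr13:33158504-33158549, − strand, match 178 bases before the start: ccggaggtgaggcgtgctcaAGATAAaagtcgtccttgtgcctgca

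Of the other motifs searched on both strands, the E-boxes CAGCTG and CAGATG, letters that TAL1 and its partners can bind, were each in 23.1% of the 52 genes, as against 17.2% and 13.5% of tested genes and 18.3% and 19.2% of all. CACGTG was in 13.5% of them (11.8% of tested, 8.09% of all) and the CCAAT box in 34.6% (44.5% and 41.1%). The ETS letters CCGGAA were in 9.62% (33.3% and 16.7%), and the sterol regulatory element of the LDL receptor promoter, to which SREBP proteins bind, in 0 of 52 (0.0442% and 0.0999%). The member windows had a median GC content of 64.33%, as against 60.33% for tested genes and 52.67% for all, and more windows per gene (1.35, 1.27 and 1.22), and the part of either in these shares was not tested. A match is a description of letters in a short window, and it is no measured binding.

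The treated groups were then compared with each other. The rule used none of these contrasts directly, but it kept only genes under 0.25 of Vector in all 3 groups. A gene low in a treated group but near its Vector level in another could not enter, whereas differences below the limit could. Counts of calls are therefore not read against those of all genes. SREBP2+EST was compared with Vector+EST to ask what SREBP2 adds where GATA1 is already active.

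In SREBP2+EST, 6 of the 74 genes were higher than in Vector+EST and 0 were lower (edgeR quasi-likelihood test, Benjamini-Hochberg adjusted p under 0.05). Over all genes tested 21.9% differed in either direction, 14% higher and 7.94% lower. At an unadjusted p under 0.05, 11 members were higher and 3 lower (18.9% and 14.9% of all genes, 33.8% in all), and DESeq2 called 4 higher and 0 lower (12% and 9.52% of all, 21.5% together). Trib3 was 1.74-fold higher (log2 0.80 ± 0.18 SE, edgeR adjusted p = 0.00416) and Nab2 1.48-fold higher (log2 0.57 ± 0.10, edgeR adjusted p = 0.000375). Slc9a3r1 and Gm42368 were each 1.26-fold higher (log2 0.34 ± 0.07 and 0.33 ± 0.08, edgeR adjusted p = 0.00187 and 0.00757). Tubb3 (1.57-fold, edgeR adjusted p = 0.0313) and Clca3a1 (1.25-fold, edgeR adjusted p = 0.0454) lost the call with DESeq2, at adjusted p = 0.0875 and 0.0931. Trib3, Nab2, Slc9a3r1 and Gm42368 kept the call when any one library was left out. Tubb3 lost it without Vector+EST 1 or 5 or any one SREBP2+EST library (edgeR adjusted p from 0.0594 to 0.107), and Clca3a1 without any one Vector library, Vector+EST 1 or 5, or SREBP2+EST 1 or 2 (edgeR adjusted p from 0.0510 to 0.173). For these 6 genes every SREBP2+EST library lay above every Vector+EST library. As they were picked by this contrast, the separation adds no support, and its share over all genes was not counted. The 6 genes come from 5 of the 8 role groups: 2 cytoskeletal proteins, 1 corepressor, 1 pseudokinase, 1 surface protein and 1 gene with no role assigned.

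For the other genes of this contrast, the size of a possible difference can be bounded. The 95% interval of the difference lay within 1.5-fold either way for 46 of the 74 genes and for 78.2% of all genes tested. For Podxl the log2 difference was 0.04 with an interval from -0.25 to 0.32, for Tal1 -0.11 with -0.32 to 0.09, for Zfp36l2 0.00 with -0.23 to 0.23, and for Lasp1 0.04 with -0.11 to 0.19. The intervals of these 4 genes lay within 1.5-fold. The median log2 difference over the 74 genes was 0.03, and over all genes 0.00. It was -0.09 without SREBP2+EST 1, -0.02 without Vector+EST 3, 0.10 without SREBP2+EST 2 and 0.05 without SREBP2+EST 5. Without the libraries labelled SREBP2 1 and SREBP2+EST 1, 6 genes were higher and 6 lower, as against 16.8% and 14% of all genes (30.7% in either direction). The 6 lower ones were Podxl (log2 -0.16), Tal1 (-0.21), Sox12 (-0.24), Mex3a (-0.34), Ptger4 (-0.36) and Slc19a1 (-0.46, edgeR adjusted p = 0.000672), while Slc41a3 took the place of Clca3a1 among the higher ones. The libraries were left out because they stood apart, so the smaller spread follows from that choice.

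**Figure D4:**
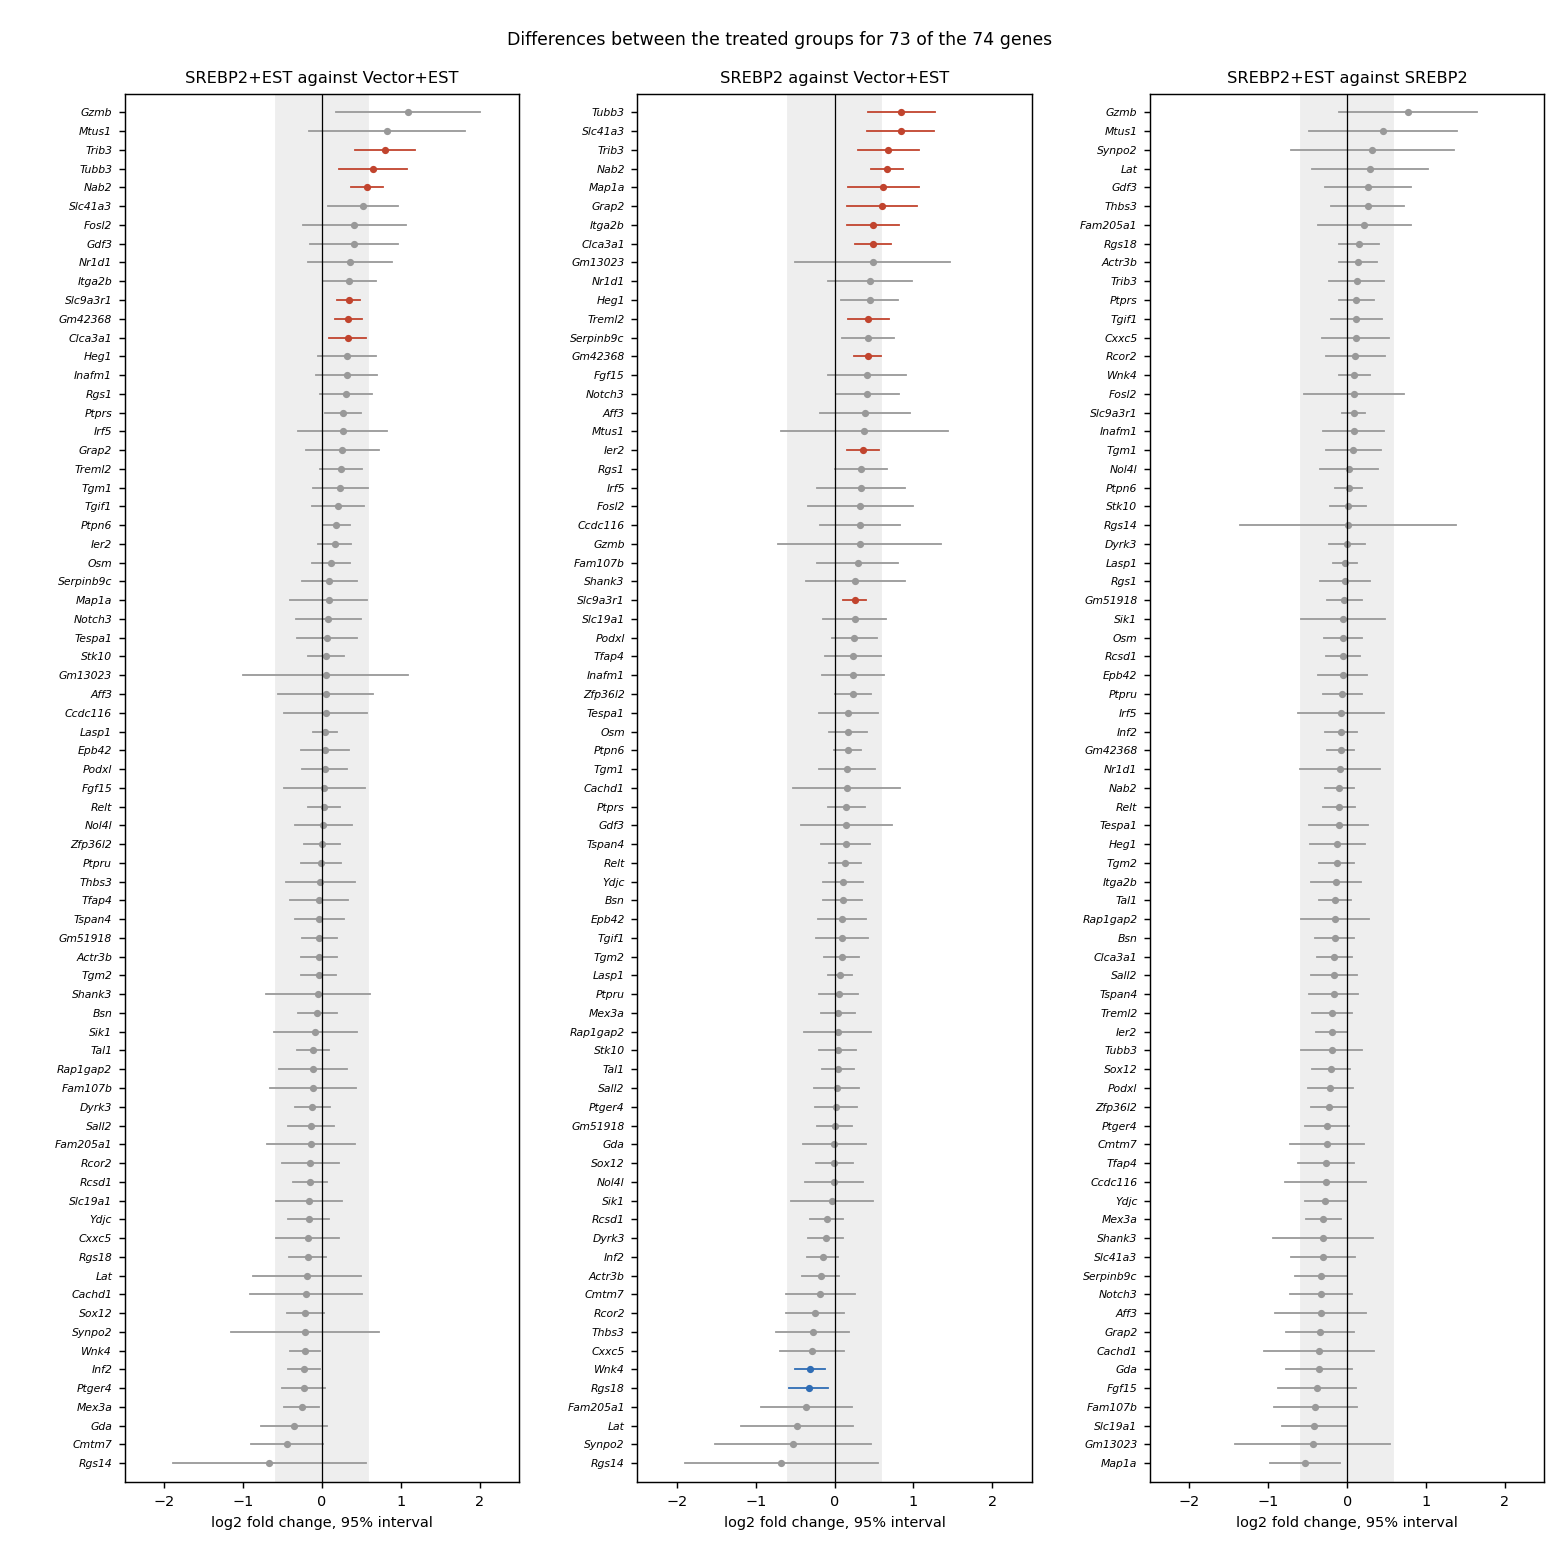
Log2 fold change (horizontal axis) with its 95% interval for 73 of the 74 genes in the 3 comparisons of treated groups, from edgeR with all 12 libraries; the grey band spans 1.5-fold either way, red marks genes called higher, blue genes called lower and grey genes not called. Calls number 6 higher in the first panel, 12 higher and 2 lower in the second, and 0 in the third.

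The single treatments were compared by setting SREBP2 against Vector+EST, whose libraries also serve in the comparison just given. Here 12 of the 74 genes were higher in SREBP2 and 2 were lower (edgeR, same threshold), where 23.4% of all genes tested differed, 14.4% higher and 8.96% lower. DESeq2 also called 12 and 2, with 12.6% and 9.21% of all genes (21.8% together), and at an unadjusted p under 0.05, 17 members were higher and 2 lower (18.9% and 15.9% of all genes, 34.8% together). Tubb3 was 1.80-fold higher (log2 0.85 ± 0.20, edgeR adjusted p = 0.00520), Slc41a3 1.79-fold (0.84 ± 0.20, edgeR adjusted p = 0.00648), Trib3 1.60-fold (0.68 ± 0.18, edgeR adjusted p = 0.0126) and Nab2 1.59-fold (0.67 ± 0.09, edgeR adjusted p = 6.61e-05). These are a tubulin, a transporter, a pseudokinase and a corepressor. Map1a (1.53-fold), Grap2 (1.51-fold), Itga2b and Clca3a1 (both 1.4-fold), Treml2 (1.35-fold), Gm42368 (1.34-fold), Ier2 (1.28-fold) and Slc9a3r1 (1.2-fold) were the other higher genes, with edgeR adjusted p from 0.00126 to 0.0496. Map1a lost the call with the 6 compared libraries alone (edgeR adjusted p = 0.117). Lower were Wnk4 (1.24-fold, log2 -0.31 ± 0.09, edgeR adjusted p = 0.0209) and Rgs18 (1.26-fold, log2 -0.33 ± 0.11, edgeR adjusted p = 0.0469), a kinase and a G protein regulator, and both lost the call with the 6 compared libraries alone (edgeR adjusted p = 0.0505 and 0.111). The median log2 difference was 0.15 over the 74 genes and 0.00 over all, and 56 of 74 were positive. The median over the 74 was 0.26 without SREBP2 1, 0.07 without SREBP2 3 and 0.08 without SREBP2 5. The interval lay within 1.5-fold for 35 of the 74 genes and 77.4% of all genes.

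The library labelled SREBP2 1 moved this count. It was the lowest of its group for 56 of the 74 genes and the highest for 3, where over all genes it was lowest for 35.8% and highest for 43.9%. Without it, 22 genes were higher than in Vector+EST (16.4% of all genes), and 26 were higher and 2 lower when SREBP2+EST 1 was left out as well (18.7% and 15.7% of all genes, 34.4% together). Podxl then stood at 151 CPM in SREBP2 (log2 0.41 ± 0.04 against Vector+EST, edgeR adjusted p = 1.51e-08) and Slc41a3, whose counts were not whole in any library, was 1.09 higher on the log2 scale. With all 12 libraries Podxl gave log2 0.25 ± 0.13 (edgeR adjusted p = 0.204). The libraries were left out because they stood apart, which narrows the spread by construction, so these p-values and counts are descriptions only. By role, the genes higher without both libraries were 7 of 11 receptors and surface proteins, 4 of 13 transcription factors and corepressors, 3 of 7 secreted proteins, 3 of 15 signalling proteins, 3 of 13 cytoskeletal proteins, 2 of 6 enzymes and transporters, 1 of 2 RNA-binding regulators and 3 of 7 with no role assigned. Without SREBP2 3 or SREBP2 5 the count of higher genes was 6 or 5 (11.4% and 12.1% of all genes). Nab2, Gm42368, Slc41a3 and Clca3a1 stayed higher when any one library was left out. The other 8 higher genes lost the call without at least one of the SREBP2 or Vector+EST libraries, Tubb3 only without SREBP2 3 (edgeR adjusted p = 0.0503), while Map1a, Grap2 and Rgs18 lost it without most single libraries (edgeR adjusted p up to 0.183, 0.201 and 0.205). Wnk4 lost it without SREBP2 1, Vector+EST 1 or Vector+EST 5 (edgeR adjusted p = 0.0520, 0.0574 and 0.111).

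SREBP2+EST against SREBP2 asks what EST adds to cells with SREBP2. With all libraries, edgeR called 0 of the 74 genes and 0 of the 11177 tested (0%), with 5 members lower and 0 higher at an unadjusted p under 0.05 (1.99% and 2.54% of all genes, 4.53% together). The 5 were Map1a, Mex3a, Slc19a1, Ydjc and Zfp36l2, and DESeq2 called 0 members and 12 genes in all (0.107%, of which 0.00895% higher and 0.0984% lower). At an unadjusted p the member count was 22 without SREBP2 1 and 21 without SREBP2+EST 1. It was 1 without SREBP2 3 or SREBP2 5, and 2 without SREBP2+EST 2 or SREBP2+EST 5. The unadjusted share of all genes was not computed for those settings. The median log2 difference over the 74 genes was -0.10, with 51 negative, as against 0.00 over all. It was -0.20 without SREBP2 1, -0.20 without SREBP2+EST 1, -0.05 without SREBP2 3, -0.06 without SREBP2+EST 5 and -0.30 without both libraries 1. Intervals lay within 1.5-fold for 44 of the 74 genes and 84.6% of all genes tested.

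The library labelled SREBP2+EST 1 was the highest of its group for 44 of the 74 genes and the lowest for 8, where over all genes it was highest for 36.2% and lowest for 40.2%. Without it and SREBP2 1, edgeR called 22 of the 74 genes lower in SREBP2+EST than in SREBP2 and 0 higher, as against 7.7% lower and 6.18% higher over all genes (13.9% together). Podxl was 151 CPM in SREBP2 3 and 5 on average and 102 CPM in SREBP2+EST 2 and 5 (log2 -0.57 ± 0.04, edgeR adjusted p = 1.84e-08). Slc19a1 was 15.2 and 8.08 CPM (log2 -0.92 ± 0.09, edgeR adjusted p = 3.00e-06), Zfp36l2 117 and 84.0 CPM (log2 -0.48 ± 0.06, edgeR adjusted p = 2.14e-05) and Tal1 110 and 85.1 CPM (log2 -0.37 ± 0.05, edgeR adjusted p = 0.000107). The genes called lower were 6 of 11 receptors and surface proteins, 4 of 6 enzymes and transporters, both RNA-binding regulators, 3 of 13 transcription factors and corepressors, 2 of 15 signalling proteins, 2 of 13 cytoskeletal proteins, 1 of 7 secreted proteins and 2 of 7 with no role assigned. The libraries left out were those nearest to the other group, so their removal widens the difference by construction, and with 2 libraries in each of these groups the spread is assumed to be that of the other groups.

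Other genes of the programs to which members belong were counted against Vector from 5 lists, whose choice was not independent of these data. The falling others of 3 lists include genes that met the limits of the 74 and were left out only by name, so that part was fixed by the rule: Gata2, Lyl1 and Ikzf4 among the early progenitor factors, Il4ra and Ptprcap among the cytokine genes, and Slc4a1 among the red cell membrane genes. Over all genes tested, 35.2% were higher and 35.5% lower in Vector+EST, 37.7% and 33.8% in SREBP2, and 38.6% and 34.2% in SREBP2+EST. Among early progenitor transcription factors, the list of Tal1, 22 others were tested, and 10 rose and 11 fell in Vector+EST, 11 and 9 in SREBP2, and 11 and 10 in SREBP2+EST. Myc, the growth factor-driven transcription factor, fell from 410 CPM to 127 CPM (Vector+EST) and 143 CPM (SREBP2), whereas Gfi1b, a repressor that erythroid cells need, rose from 299 CPM to 761 and 734 CPM. The list thus went both ways, and the others that fell in all 3 treated groups were Gata2, Lyl1, Myb, Myc, Etv6, Mef2c, Ikzf4, Bcl11a and Cbfa2t3.

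Among cytokine receptors and JAK-STAT feedback genes, the list of Osm, 24 others were tested, and 9 rose and 13 fell in Vector+EST, 10 and 13 in SREBP2, and 9 and 12 in SREBP2+EST. Cish, a STAT5-induced inhibitor, fell from 139 CPM to 33.0 and 45.6 CPM, and Pim1, a STAT-induced kinase, from 326 CPM to 83.7 and 94.0 CPM, in Vector+EST and SREBP2. Csf2rb, the common β chain of the IL-3 receptor family, rose from 67.8 CPM to 480 and 991 CPM, and stands in the mast cell and myeloid list too. Of ERK feedback and early response genes, the list of Ier2 and Rgs1, 17 others were tested, and 4 rose and 7 fell, 7 and 8, and 7 and 8. Junb fell from 65.1 CPM to 33.0 and 35.1 CPM, and Phlda1 rose from 34.9 CPM to 216 and 262 CPM. Of red cell membrane genes, the list of Epb42, 17 others were tested, and 4 rose and 13 fell in Vector+EST, 4 and 10 in SREBP2, and 4 and 10 in SREBP2+EST. Sptb, β-spectrin, rose from 287 CPM to 815 and 803 CPM, and Tspo2, a membrane protein of maturing erythroid cells, fell from 43.7 CPM to 11.1 and 14.3 CPM. Of mast cell and myeloid genes, which hold no member, 9 were tested, and 4 rose and 4 fell, 4 and 2, and 4 and 4.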

How the data were processed

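RNA-seq of 12 libraries (single-end reads of 50 bases, strand not marked) was analysed. Gene-level estimated counts, not normalized, were deposited by the authors, and of these 66.5% were whole numbers within 1e-09. The submitters' processing notes name HISAT2 2.0.4, Bowtie2 2.2.5, RSEM 1.2.12, DESeq2 1.4.5 and GRCm38.p6, without their roles. A second deposited file, of pairwise log2 fold changes and p-values, was not used. CPM was computed on library totals. Counts were rounded and tested with edgeR 4.0.16 (R 4.3.3, limma 3.58.1; TMM, filterByExpr, quasi-likelihood test) in 1 fit of all 12 libraries, with Benjamini-Hochberg adjustment over 11177 genes, while 6033 were filtered out. DESeq2 1.42.0 was an alternative. The fit was tested on simulated data. Contrasts against Vector were used by the rule, so the 74 genes carry no test in them. Calls against Vector are given for all genes and for the other genes of 5 lists. No library preparation batch is given in the labels. Values per library are given for the 12 genes with the most reads in Vector, the 3 with the lowest level left in each treated group, and genes called between treated groups (at most the 8 with the largest change per contrast and direction). The genes, role groups and lists were chosen with earlier results of these data known. One of the 74 genes is not reported here by name or in the plots of single genes, but stays in the counts, medians and sums.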

Additional observations from a re-analysis of the deposited data

How the results depend on the processing

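With all 12 libraries the counts were 6 genes higher and 0 lower in SREBP2+EST than in Vector+EST, 12 higher and 2 lower in SREBP2 than in Vector+EST, and 0 between SREBP2+EST and SREBP2. The cause of the changes below was not tested. RLE scaling in place of TMM, and scaling by library totals, each gave 5 higher in SREBP2+EST than in Vector+EST (12.8% and 11.6% of all genes). For SREBP2 against Vector+EST each gave 10 higher (13.7% and 12.2% of all genes). For SREBP2+EST against Vector+EST, an unadjusted p under 0.05 gave 11 higher and 3 lower (18.9% and 14.9% of all genes). Scaling by library totals gave 3 lower (15.8% of all genes, as against 7.94%), and leaving out libraries SREBP2 1 and SREBP2+EST 1 gave 6 lower (14%). Leaving out single libraries gave 4 to 8 higher and 0 to 1 lower (11.1% to 15.9% and 4.5% to 11.4% of all genes). For SREBP2 against Vector+EST, leaving out both libraries gave 26 higher (18.7% of all genes). Leaving out single libraries gave 5 to 22 higher and 0 to 2 lower (11.4% to 16.4% and 5.22% to 12.1% of all genes). The count of 2 lower became 1 with at least 10 counts required in every library, 0 with only the 6 libraries compared, and 1 without Vector+EST 5, the library with the most fibroblast transcripts (9.15%, 6.47% and 5.71% of all genes lower, as against 8.96%). For SREBP2+EST against SREBP2, the count became 22 without both libraries (13.9% of all genes, as against 0%) and 5 at an unadjusted p (4.53% of all genes).

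With the header number as a replicate block, 3 genes were higher in SREBP2+EST than in Vector+EST, and 10 higher and 0 lower in SREBP2, while the share of all genes called was 10.8% (21.9% without the block) and 16.1% (23.4%). Deviations from the group means correlated from -0.174 to 0.0674 between libraries with the same number, and from -0.0761 to 0.128 between those with different numbers. The value of -0.174 was that of SREBP2 1 with SREBP2+EST 1, the pair that stood apart. These correlations showed no pairing by number, but they cannot say whether the cultures were paired. The rule kept 122 genes with a Vector minimum of 1 CPM and 149 with ratios under 1/3. Of 20 calls named between treated groups, 0 reversed under any setting, and 1 to 8 missed the threshold in each. The unadjusted counts and the rule without both libraries were added after the data were seen.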
